A study of Rattus norvegicus with 6 samples.

Results

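The measurements described here cover the transcription factor Nrf2, its inhibitor Keap1, a group of antioxidant enzymes whose genes Nrf2 is known to switch on, and the cytosolic thioredoxin system, in cultured neonatal rat ventricular cardiomyocytes. The group was a list of 10 rat genes, and every row of the deposited mRNA table whose RefSeq transcript belongs to one of them was taken. Of the 10 genes 9 had a row, with 1 row each, among 20734 rows in all. No row of Srxn1 was found, so that gene was not analysed here. Cells given isoproterenol (10 µM, 24 h), which activates beta-adrenergic receptors, were compared with untreated cells kept for the same time, with 3 samples in each group. Per the labels, both groups were ventricular myocytes from newborn Sprague-Dawley rats aged 1 to 3 days, with fibroblasts depleted by letting them attach first and with serum withdrawn before treatment. The labels also mention passaged cells, and the series text mentions transfection, neither of which describes primary myocytes given an agonist. Replicates are described as biological, yet no label ties a sample to a litter or a culture, and all p-values therefore reflect only how far these samples spread, which may be technical.

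Nrf2, encoded by Nfe2l2, is a leucine-zipper transcription factor that is held at a low level because Keap1, an adaptor of a Cul3 ubiquitin ligase, marks it for degradation. Oxidants and electrophiles modify cysteines of Keap1, after which Nrf2 accumulates, pairs with a small Maf protein and binds antioxidant response elements. Its known targets make glutathione, reduce quinones, degrade haem and keep thioredoxin reduced, and in the heart they are known for protecting myocytes from oxidants.

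The core of the antioxidant response element, TGACNNNGC, was searched on both strands in 300-base RefSeq promoter windows of assembly GRCr8, which run from 250 bases before to 50 bases after an annotated start. A window was given for 8 of the 10 genes, and 12.1% of all 33469 windows of that length held at least 1 match. Matches were found for 3 of the 8 genes, Txnrd1, Gclm and Nfe2l2, where the 8 genes have 9 windows. Sequence farther from the start was not searched, so a gene without a match may hold one elsewhere. The windows of Txnrd1 and Gclm are shown because Txnrd1 had the largest change among the members while Gclm, which also holds a match, did not pass the test. Capitals mark the match, which in both lies on the opposite strand and therefore reads as its reverse complement. In Txnrd1, in 1 of its 2 windows (chr7:22755855-22756154, minus strand), the match begins at position −78 relative to the start site, and in Gclm (chr2:213031885-213032184, plus strand) at position −172. A match is a description of these letters and not a measured binding site.
Txnrd1: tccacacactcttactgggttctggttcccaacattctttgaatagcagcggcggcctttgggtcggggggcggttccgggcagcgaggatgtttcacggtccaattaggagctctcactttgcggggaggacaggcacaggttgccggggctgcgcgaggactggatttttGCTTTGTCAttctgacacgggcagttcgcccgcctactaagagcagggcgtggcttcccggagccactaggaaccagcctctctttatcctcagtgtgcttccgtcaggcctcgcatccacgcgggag
Gclm: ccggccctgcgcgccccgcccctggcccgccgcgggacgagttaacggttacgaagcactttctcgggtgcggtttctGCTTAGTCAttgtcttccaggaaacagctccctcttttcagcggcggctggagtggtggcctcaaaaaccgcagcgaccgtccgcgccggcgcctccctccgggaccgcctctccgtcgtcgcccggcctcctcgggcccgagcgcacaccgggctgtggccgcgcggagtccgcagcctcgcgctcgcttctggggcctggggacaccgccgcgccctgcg

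The RNA was measured on 6 one-colour arrays, whose file headers hold 2 scan dates. Arrays that share a scan date are called a slide here. Slide 1 held isoproterenol replicate 1 and all 3 controls, and slide 2 held isoproterenol replicates 2 and 3, so slide and treatment partly coincide. On the slide 2 arrays 61.3% and 70.8% of matched mRNA rows were well above background, against 97.5% to 99.9% on slide 1. All 9 members were well above background on all 6 arrays and no member spot carried an outlier mark or was saturated. Levels are given as log2 signal relative to the array's own 75th percentile, so a value of 1 is 2 times that percentile, and they are comparable between arrays for 1 gene but not between genes. Each change is the isoproterenol mean minus the control mean on that log2 scale (n = 3 per group), given ± the SE from limma fitted across all rows, and a row is said to have risen or fallen when limma's adjusted p (Benjamini-Hochberg over 20651 rows) was under 0.05.

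Isoproterenol-treated cells had more mRNA of both thioredoxin-system members, of the quinone reductase Nqo1 and of haem oxygenase Hmox1, while the message of Nrf2 itself was at nearly the same level in both groups. Of the 9 members 4 rose, 0 fell and 5 did not pass. Over all rows tested 9.95% were called higher and 5.92% lower. At an unadjusted limma p under 0.05, 5 members were higher and 1, Keap1, was lower. The changes of the 4 genes that rose ran from 1.85-fold for Hmox1 to 2.79-fold for Txnrd1. The 3 values of each group lay apart in 6 members, 5 of them higher and 1 lower with isoproterenol, as they did in 41.3% of all rows tested, 25.4% higher and 15.9% lower. The median change of the 9 members was 0.68, beside 0.06 over all rows. Within slide 1, where isoproterenol replicate 1 stands against the 3 controls, 1 member was called higher, Nqo1, where 2.45% of all rows were called higher and 2.67% lower, and the members' median was 0.54. That fit has 1 treated array, so the spread behind each of its p-values comes from the 3 controls alone and the treated array is assumed to vary like them. With slide as a block in the fit 2 members were called higher, Nqo1 and Txnrd1, where 3.45% of all rows were called higher and 3.46% lower. Slide 2 held no control, so the changes of the block fit also rest on isoproterenol replicate 1 against the 3 controls. For the members these changes equal those within slide 1, and isoproterenol replicates 2 and 3 add only to the estimate of spread. The count of members moved with single arrays, as did the share of all rows called higher. It was 0 without control replicate 2 and 0 without control replicate 3, where 1.38% and 1.03% of all rows were called higher. In each of those limma fits 4 members were higher at an unadjusted p under 0.05, a cut at which all rows were not counted. The changes themselves were then 1.28 and 1.38 for Nqo1, 1.37 and 1.50 for Txnrd1, 1.08 and 1.08 for Txn1 and 0.80 and 0.93 for Hmox1. It was 2 without control replicate 1 (4.25% of all rows) or isoproterenol replicate 2 (3.39%), 1 without isoproterenol replicate 3 (2.2%), and 7 without isoproterenol replicate 1 (28.9%). The split of all called rows, 2055 higher and 1223 lower, moved to 1376 and 2014 when arrays were scaled over probes detected on all of them, and to 2113 and 762 with normexp background correction. Fitted on the authors' deposited log2 values, 3 members were called higher, where 7.79% of all rows were. These were Nqo1, Txnrd1 and Hmox1, at 1.25, 0.98 and 0.71. Txn1, at 0.59, did not pass there (limma adjusted p = 0.0729).

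**Figure D1:**
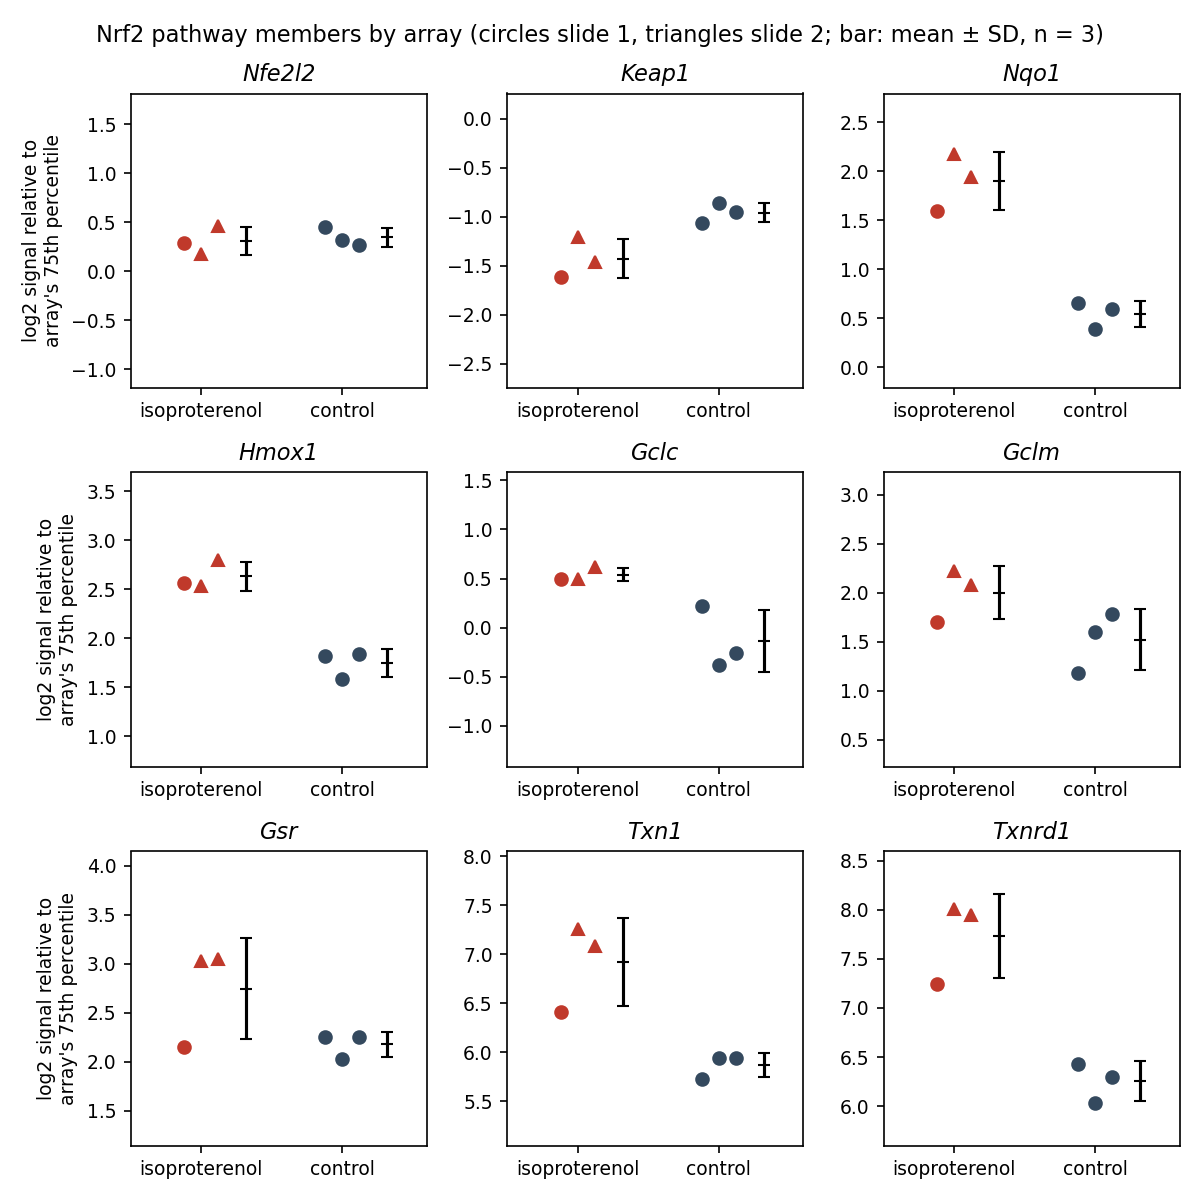
Log2 signal of each member relative to the array's 75th percentile, by group, with isoproterenol at the left and control at the right of each panel; circles are arrays of slide 1, triangles arrays of slide 2, and bars give the mean ± SD of 3 arrays. All panels span the same log2 range. In Nqo1, Hmox1, Gclc, Txn1 and Txnrd1 every isoproterenol array lies above every control array, and in Gsr the slide 1 isoproterenol array, at 2.15, lies among the controls.

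Among the regulators, Nfe2l2 had levels of 0.29, 0.18 and 0.46 in isoproterenol replicates 1 to 3, against 0.45, 0.32 and 0.27 in the controls. The groups overlapped, with isoproterenol replicates 2 and 3 below and above all controls. The change was −0.03 ± 0.17 (limma adjusted p = 0.898), with a 95% interval from −0.43 to 0.36, which corresponds to 0.742-fold to 1.28-fold. Its sign turned positive under median scaling, at 0.03, without control replicate 1, at 0.02, and without isoproterenol replicate 2, at 0.03.

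Keap1, the Nrf2 inhibitor, was at −1.61, −1.21 and −1.46 with isoproterenol, against −1.06, −0.86 and −0.95 in the controls. The 3 treated arrays were all below the 3 control arrays, with a gap of 0.15 between the nearest values. The change was −0.47 ± 0.18 and did not pass (limma adjusted p = 0.114). It was −0.65 within slide 1 and also with slide as a block, where it did not pass (limma adjusted p = 0.092). It passed the threshold, at −0.71, when arrays were scaled on the probes detected on all of them (limma adjusted p = 0.0271). That scaling moved all rows down, to a median change of −0.18 from 0.06, with 2014 rows called lower instead of 1223. Within each array, Nfe2l2 minus Keap1 was 1.90, 1.39 and 1.92 with isoproterenol and 1.51, 1.18 and 1.22 in the controls. Scaling an array by 1 factor leaves this difference unchanged, while quantile normalization or background correction can alter it. These differences overlapped between the groups (exact permutation test, two-sided, p = 0.2, and 0.3 adjusted over 3 such pairs; the smallest p that 3 against 3 arrays allow is 0.1).

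Nqo1 encodes NAD(P)H quinone dehydrogenase, which reduces quinones without releasing radicals and is a classical readout of Nrf2. Its levels were 1.59, 2.17 and 1.94 with isoproterenol, against 0.65, 0.39 and 0.59 in the controls. All treated arrays were above all controls, with 0.94 between the nearest values. The gene rose by 1.36 ± 0.21, or 2.56-fold with a 95% interval from 1.82-fold to 3.59-fold (limma adjusted p = 0.0102). Within slide 1 the change was 1.05 (adjusted p = 0.0499). Over the alternatives it ran from 1.05 to 1.51.

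Hmox1 encodes the inducible haem oxygenase, which breaks haem down to biliverdin, carbon monoxide and iron, and which is held down by the repressor Bach1 when haem is scarce. Levels were 2.56, 2.53 and 2.80 with isoproterenol, against 1.82, 1.58 and 1.84 in the controls. After scaling, the treated arrays were close together on both slides and all above the controls. Before scaling, the linear signals were 3530, 1200 and 1740 scanner units with isoproterenol and 1930, 1740 and 1980 in the controls. The slide 2 arrays then lay within or below the range of the controls. Hmox1 rose by 0.88 ± 0.18, or 1.85-fold with a 95% interval from 1.38-fold to 2.47-fold (limma adjusted p = 0.0212). Within slide 1 the change was 0.81 and did not pass (adjusted p = 0.0748). Hmox2, the constitutive haem oxygenase, was at 0.05 ± 0.48 (limma adjusted p = 0.946) in the brighter of its 2 rows, which was well above background on 2 of 3 isoproterenol arrays, and was named after its values had been seen.

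The 3 glutathione members did not pass the test. Gclc, the catalytic subunit of glutamate-cysteine ligase, which carries out the rate-limiting step of glutathione synthesis, was at 0.50, 0.50 and 0.62 with isoproterenol, against 0.22, −0.38 and −0.26 in the controls. The treated arrays were all higher, with control replicate 1 nearest to them. The change was 0.68 ± 0.21 (limma adjusted p = 0.0659; 0.64 within slide 1, adjusted p = 0.217). It passed when only rows well above background on all 6 arrays were tested (adjusted p = 0.0296), where 24.8% of rows were called higher.

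Gclm, the modifier subunit that makes the ligase more active, was at 1.70, 2.22 and 2.08 with isoproterenol, against 1.18, 1.6 and 1.78 in the controls. Isoproterenol replicate 1 lay among the controls, and the controls themselves spread widely (SD 0.31). The change was 0.48 ± 0.23 (limma adjusted p = 0.185), with a 95% interval from −0.07 to 1.04, and 0.18 within slide 1. Within each array Gclc minus Gclm was −1.20, −1.71 and −1.46 with isoproterenol and −0.96, −1.97 and −2.04 in the controls (exact permutation test, two-sided, p = 0.6, and 0.6 adjusted over the 3 pairs).

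Gsr, glutathione reductase, which returns oxidised glutathione to its reduced form with NADPH, was at 2.15, 3.03 and 3.05 with isoproterenol, against 2.25, 2.03 and 2.25 in the controls. Both arrays of slide 2 were high, and the treated array of slide 1 lay among the controls. The change was 0.57 ± 0.28 (limma adjusted p = 0.184), and within slide 1 it was −0.02 (adjusted p = 0.944). Without isoproterenol replicate 1 each group has a slide of its own, and the change was then 0.87 (adjusted p = 0.00408).

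Txnrd1 encodes the cytosolic thioredoxin reductase, a selenoenzyme that uses NADPH to keep thioredoxin reduced. Its levels were 7.24, 8.01 and 7.95 with isoproterenol, against 6.43, 6.03 and 6.30 in the controls. The treated arrays were all above the controls, with 0.81 between the nearest values, and both slide 2 arrays were above the treated array of slide 1. Txnrd1 rose by 1.48 ± 0.26, or 2.79-fold with a 95% interval from 1.83-fold to 4.25-fold (limma adjusted p = 0.0142). Within slide 1 the change was 0.99 (adjusted p = 0.0695, and 0.0492 with slide as a block), and quantile normalization gave 0.98 (adjusted p = 0.0168).

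Txn1, thioredoxin, the dithiol protein that reduces peroxiredoxins and ribonucleotide reductase, was at 6.41, 7.26 and 7.08 with isoproterenol, against 5.73, 5.94 and 5.94 in the controls. The groups lay apart by 0.47. Txn1 rose by 1.04 ± 0.25, or 2.06-fold with a 95% interval from 1.36-fold to 3.12-fold (limma adjusted p = 0.0368). It did not pass within slide 1, where the change was 0.54 (adjusted p = 0.128), nor after quantile normalization, which gave 0.59 (adjusted p = 0.0757). Before scaling, the linear signals of Txn1 were 51000, 31600 and 33700 scanner units with isoproterenol and 29000, 35700 and 33900 in the controls, and the slide 2 arrays lay within the range of the controls. The 75th percentile that these signals were scaled to was 207 and 249 units on slide 2, against 547 to 599 on slide 1. Within each array Txnrd1 minus Txn1 was 0.83, 0.75 and 0.87 with isoproterenol and 0.69, 0.09 and 0.36 in the controls. The treated values were all above the control values (exact permutation test, two-sided, p = 0.1, the smallest possible here, and 0.3 adjusted over the 3 pairs).

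**Figure D2:**
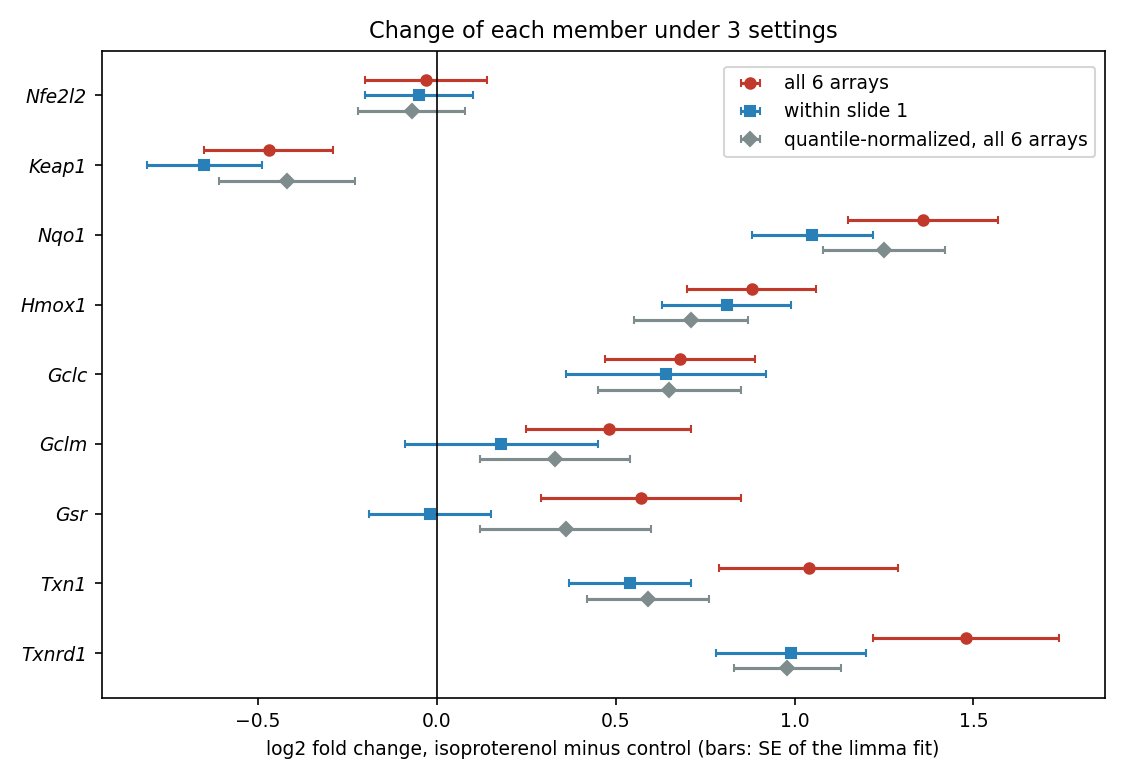
Log2 fold change of each member, isoproterenol minus control, with bars of 1 SE, for all 6 arrays scaled to the 75th percentile (circles), for slide 1 alone (squares) and for quantile-normalized values of all 6 arrays (diamonds). Nqo1, Hmox1 and Gclc keep similar positions, at 0.64 or more under each, whereas Gsr moves to −0.02 and Txn1 to 0.54 within slide 1.

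The median change of all rows depended on their brightness. Rows were split into 10 deciles of equal size by mean signal. In the brightest decile, which held Txn1 and Txnrd1, the median was 0.50 over all arrays and 0.18 within slide 1. The share of rows called higher was 16.3% there, 18.8% in the next decile and 14.7% in the eighth, so the 4 members that rose lay in deciles with a larger share than the 9.95% of all rows. In that next decile, with Hmox1 and Gsr, the median was 0.31 and 0.11, and in the eighth, with Nqo1 and Gclm, 0.16 and 0.05. The seventh, with Nfe2l2 and Gclc, had a median of 0.07 and the sixth, with Keap1, of −0.02. The part of this trend in the members' changes was not tested.

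**Figure D3:**
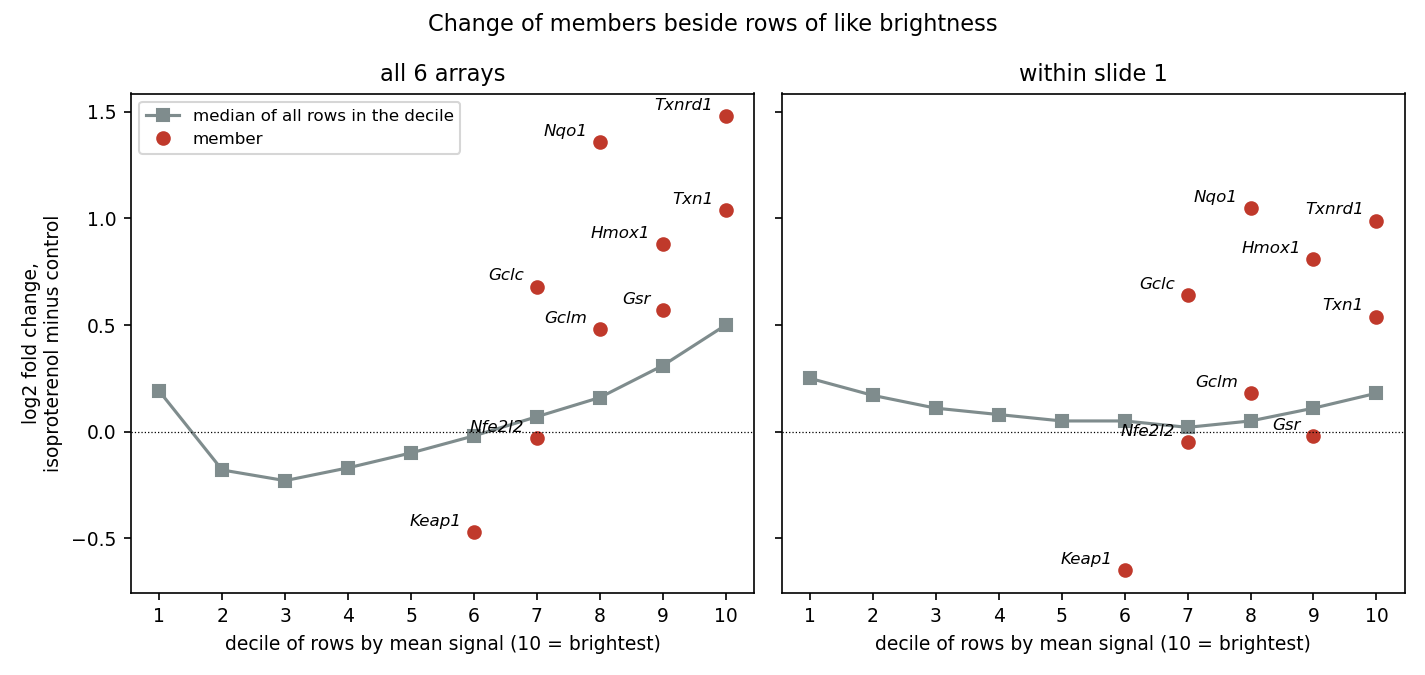
Log2 fold change, isoproterenol minus control, of each member (circles) against the decile of all rows it belongs to by mean signal, beside the median of all rows of that decile (squares and line), for all 6 arrays at the left and for slide 1 alone at the right. The line is at 0.50 in the brightest decile over all arrays and at 0.18 there within slide 1.

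The likeness of profiles was measured as the root mean square distance between mean-centred log2 levels over the 6 arrays. Among the members Nqo1 and Txnrd1 were closest, at 0.127, followed by Hmox1 and Gclc at 0.187, and Keap1 and Txnrd1 were farthest apart, at 1. Over all named rows outside the members, Pum3, B4galt5 and Pask were nearest to Txnrd1, at 0.0476, 0.0655 and 0.0687. Those nearest to Nfe2l2 were Yy1, Ppp4r3a and Ltn1, at 0.0428, 0.0446 and 0.0459.

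Among 14 partners and regulators of Nrf2, 13 were tested; 2 rose, 0 fell and 11 had no call, a share of 15.4% called beside 15.9% of all rows. At an unadjusted limma p under 0.05, 4 were higher and 0 lower. The median change was 0.48 over all arrays and 0.04 within slide 1. Mafk, a small Maf protein that pairs with Nrf2 or with the repressor Bach1, rose by 2.02 ± 0.42 (limma adjusted p = 0.0238; 1.28 within slide 1, adjusted p = 0.183). Cand1, which exchanges the substrate adaptors of cullin ligases, rose by 0.85 ± 0.20 (limma adjusted p = 0.0364; 0.49 within slide 1, adjusted p = 0.123). With slide as a block neither passed, at adjusted p = 0.158 and 0.111.

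Genes of glutathione synthesis, import and conjugation went both ways. Tests on 34 of them gave 7 that rose, 8 that fell and 19 without a call. That is a share of 44.1% called beside 15.9% of all rows, with a median change of 0.06. Without adjustment, at a limma p under 0.05, 13 were higher and 10 lower. This and the other pathway lists were chosen with earlier results of these data known, so their shares only describe the lists. The largest rise was that of Slc7a11, the cystine-glutamate exchanger that brings in the cysteine for glutathione. Its levels were 2.22, 2.82 and 3.14 with isoproterenol, against 0.13, 0.18 and 0.06 in the controls. Slc7a11 rose by 2.61 ± 0.25 (limma adjusted p = 0.00346; 2.10 within slide 1, adjusted p = 0.0258). Gsta2, an alpha-class glutathione transferase, rose by 2.56 ± 0.21 (limma adjusted p = 0.00226; 2.4 within slide 1). Ggt7, of the gamma-glutamyltransferase family, rose by 1.76 ± 0.28, and Mgst2, a microsomal glutathione transferase, by 1.52 ± 0.17 (limma adjusted p = 0.0115 and 0.00475).

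Apart from Ggt5, the genes of that list that fell were glutathione transferases. Mgst3, a microsomal transferase, fell, at −1.81 ± 0.25 (limma adjusted p = 0.00812; −2.19 within slide 1, adjusted p = 0.0282), and Gstt2, of the theta class, at −1.51 ± 0.23. The mu-class genes Gstm3 and Gstm2 fell as well, at −1.23 ± 0.23 and −1.16 ± 0.25 (limma adjusted p = 0.0181 and 0.0274). With slide as a block Gstm3 was at −0.87 and did not pass (limma adjusted p = 0.084). Gstt2 and Gstm2 passed there, at −1.15 and −1.58 (limma adjusted p = 0.0443 and 0.031). Transferases of 1 class have near-identical copies, and how far their probes tell them apart was not tested. Within slide 1, again with 1 treated array, 5 genes of this list passed as higher, among them Slc7a11, Gsta2, Ggt7 and Mgst2, and 2 as lower, among them Mgst3.

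Among thioredoxin partners and peroxiredoxins 18 genes were tested; 1 rose, 2 fell and 15 had no call, a share of 16.7% called beside 15.9% of all rows. Without adjustment, at a limma p under 0.05, 4 were higher and 5 lower. Prdx6, a peroxiredoxin that is reduced by glutathione, rose by 0.81 ± 0.17 (limma adjusted p = 0.0257; 0.67 within slide 1, adjusted p = 0.0704). Txnrd3, a thioredoxin-glutathione reductase best known from testis, fell, at −1.23 ± 0.19 (limma adjusted p = 0.0101; −1.51 within slide 1, adjusted p = 0.0299), opposite in direction to Txnrd1. Msrb2, a mitochondrial methionine sulphoxide reductase, fell, at −1.08 ± 0.25 (limma adjusted p = 0.0337), but did not pass within slide 1, at −0.96 (adjusted p = 0.145), or with slide as a block (adjusted p = 0.159).

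Other known Nrf2 targets, which supply NADPH, handle iron and haem or detoxify, numbered 27, of which 26 were tested; 6 rose, 1 fell and 19 had no call. That is a share of 26.9% called beside 15.9% of all rows, and the median change was −0.09. Without adjustment, at a limma p under 0.05, 7 were higher and 3 lower. Akr1b8, an aldo-keto reductase, rose by 1.95 ± 0.22 (limma adjusted p = 0.00511; 1.61 within slide 1, adjusted p = 0.04). The rises of Me1 and Pgd, which make NADPH from malate and from 6-phosphogluconate, were 1.56 ± 0.35 and 1.00 ± 0.21 (limma adjusted p = 0.0295 and 0.0253). Ptgr1, a reductase of prostaglandins and alkenals, rose by 1.20 ± 0.27 (limma adjusted p = 0.0297). Within slide 1 these 3 were at 0.78, 0.61 and 0.61 in that order and did not pass. Akr1b10, another aldo-keto reductase, was called lower at −1.02 ± 0.28 but was well above background on 1 isoproterenol array, and it was at 0.05 at the highest of the alternatives. The ferritin genes Fth1 and Ftl1 did not pass, at −0.23 ± 0.19 and −0.12 ± 0.18 (limma adjusted p = 0.416 and 0.649); both were named after their values had been seen.

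**Figure D4:**
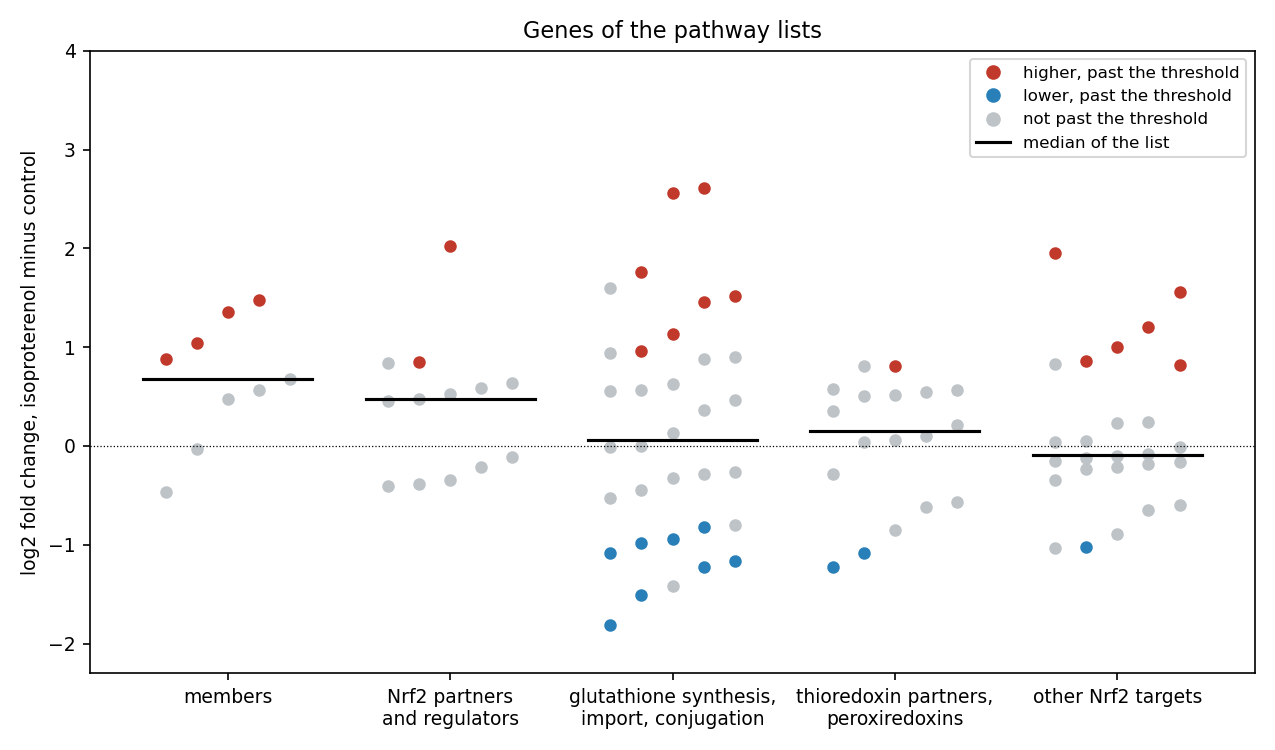
Log2 fold change, isoproterenol minus control, of every gene tested in the member list and in 4 further pathway lists; each point is a gene, colour gives the outcome of limma's test at an adjusted p of 0.05, and the bar is the list's median. The members' median lies at 0.68, while the glutathione list has 7 genes called higher and 8 called lower around a median of 0.06.

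Cardiomyocyte markers, with 10 rows, had a summed linear level of 1690, 2820 and 2760 times the array's 75th percentile in isoproterenol replicates 1 to 3, against 1670, 1450 and 1570 in the controls. The slide 2 arrays were thus the high ones, and at least 9 of 10 rows were well above background on every array. The median change of this list was 0.39 over all arrays and 0.09 within slide 1, but single markers went opposite ways. Of 9 genes tested 1 was called, Myh6, higher at 1.23 ± 0.23 (limma adjusted p = 0.0185), a share of 11.1% beside 15.9% of all rows. Pln and Mybpc3 did not pass, at −0.82 ± 0.23 and −0.39 ± 0.33. Within slide 1 Myh6 was at 0.82, Pln at −1.24 and Mybpc3 at −1.15. With slide as a block these changes were the same, but the calls differed. Myh6 then did not pass (limma adjusted p = 0.0707), while Pln and Mybpc3 were called lower (limma adjusted p = 0.0247 and 0.0282). Smooth muscle and pericyte markers, with 6 rows, summed to 217 to 498 with isoproterenol, against 84.1 to 149 in the controls; the treated array of slide 1 had the 217. Of 6 genes tested 2 were called, Acta2 and Tagln, both higher, a share of 33.3% beside 15.9% of all rows. Most of the sum came from them, with isoproterenol means of 6.79 and 7.96, where no other marker of the list exceeded 0.47. Rgs5, Pdgfrb and Notch3 did not pass, at 0.18 ± 0.21, −0.16 ± 0.17 and −0.39 ± 0.25. Myh11 was at −0.27 ± 0.42 (limma adjusted p = 0.66). The median change of the list was 0.01 over all arrays and 0.38 within slide 1. With slide as a block Acta2 and Tagln were at 1.16 and 1.03 and did not pass (adjusted p = 0.309 and 0.0648). Of 10 fibroblast markers 2 rose, Thy1 and Ddr2, and 4 fell, Col3a1, Postn, Lum and Tcf21, a share of 60.0% called beside 15.9% of all rows. With slide as a block Ddr2, Col3a1 and Tcf21 did not pass (adjusted p = 0.0942, 0.0602 and 0.0676), and within slide 1 the calls of this list were Col3a1 and Postn, 2 genes, both lower. The 10 fibroblast markers summed to 133 to 178 with isoproterenol, against 156 to 165 in the controls. The 10 rows of macrophage and leukocyte markers summed to 37 to 54.4 with isoproterenol, against 27.9 to 40.2 in the controls. The 7 rows of endothelial markers summed to 14.3 to 15.8, against 15.2 to 17.1. Of the endothelial genes 1 was called, Kdr, lower at −1.22 ± 0.17 (limma adjusted p = 0.00809), a share of 14.3% beside 15.9% of all rows. Kdr also passed with slide as a block (limma adjusted p = 0.0257), but was well above background on 1 isoproterenol array. The 3 erythroid rows summed to 0.197 to 0.362 with isoproterenol, against 0.318 to 0.426 in the controls. On the isoproterenol arrays 0 to 3 of them were well above background, against 3 on each control array. Of these 1 was called, Hbb, lower at −0.84 ± 0.18 (limma adjusted p = 0.0263), a share of 33.3% beside 15.9% of all rows. Hbb was well above background on 1 isoproterenol array and did not pass with slide as a block (limma adjusted p = 0.0888). The part of these markers in the members' changes was not tested, and in such cultures fewer cells of a type cannot be told apart from less RNA per cell.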

How the data were processed

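RNA of 3 isoproterenol-treated and 3 untreated samples was measured on 1-colour arrays. Per the file headers, the deposited intensity values come from the scanner software Agilent Feature Extraction, version 11.0.1.1, on a design that names build rn4. The authors also deposited tables of log2 values, normalized by a tool not given in the sources used here. Their columns are close to quantile-normalized log2 intensities.

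The scanner files give design numbers as probe names, so each table row was paired with the probe nearest to it in value across all 6 arrays (distance under 0.05 and under 0.25 of that to the next probe). Of 20734 mRNA rows 20651 were matched, and all 20650 neighbouring pairs followed the order of features on the array. RefSeq accessions were named through a GRCr8 table, which named 13956 rows. Log2 processed signal minus the array's 75th percentile over non-control probes was compared with limma 3.58.1 in R 4.3.3, without covariates. Rows had to be well above background on 3 arrays, and all matched rows were. Spots marked as outliers were left out. The number of arrays limits the precision. The fit was tested on simulated data.

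Slide was inferred from the scan date in the file headers and not from a slide label. Same-numbered samples did not deviate together (r = 0.00714, 0.0557 and −0.0256), so numbers were not treated as pairs. Genes of the other pathway lists were named when called, up to 4 in each direction by size of change, each gene by its brightest row. Members, lists and tests were chosen with earlier results of these data known. The normexp alternative used the median signal, since the files have no mean signal.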

Additional observations from a re-analysis of the deposited data

How the results depend on the processing

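Across the alternatives, Nqo1 passed the threshold in 15 of 17, Txnrd1 in 13, Hmox1 in 9 and Txn1 in 6, always as a rise, with log2 changes of 1.05 to 1.51, 0.98 to 1.73, 0.65 to 0.95 and 0.54 to 1.30. The filter on dim probes removed no row, so its absence gave identical values. The count of members called higher, 4 of 9, was 2 with slide as a block and 1 within slide 1. With the replicate number as a block (replicate block) it was 2, with 830 rows higher and 651 lower. Leaving out 1 array at a time it ranged from 0 to 7. It was 0 without control replicate 2 or 3, 2 without control replicate 1 or isoproterenol replicate 2, 1 without isoproterenol replicate 3, and 7 without isoproterenol replicate 1, when Gclc, Gclm and Gsr passed too and the groups lay on different slides. Members called lower numbered 1 instead of 0 (Keap1) when scaled over probes detected on all arrays, where 2014 of all rows were called lower instead of 1223.

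Over all rows, 2055 were higher and 1223 lower. With slide as a block these were 712 and 715, within slide 1 505 and 551. Testing only the 12592 rows well above background on all 6 arrays gave 3128 higher, or 24.8%, beside 9.95% of all 20651 rows. Scaling over probes detected on all arrays gave 2014 lower and normexp 762 lower. Leaving out 1 array gave 212 to 5966 higher and 173 to 4699 lower. The median change of all rows was 0.06 in the comparison as given, −0.18 when scaled over probes detected on all arrays, −0.09 under quantile normalization and 0.37 under normexp, with 0.13 under median scaling. Nfe2l2, at −0.03, turned to 0.03 under median scaling, 0.02 without control replicate 1 and 0.03 without isoproterenol replicate 2, in a range of −0.11 to 0.03 over single arrays left out. Gsr, at 0.57, turned to −0.02 with slide as a block and −0.02 within slide 1, changes that rest on the same treated array. The cause of these changes was not tested. Dim signals on slide 2 limit the list genes more than the members, all of which were well above background.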
